A study of Mus musculus with 9 samples.

Results

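Myo18b, Myo5a and 8 further myosin heavy chains were followed in sorted Cd11b+ myeloid cells of the mouse brain. The 10 genes were taken by symbol from the 36528 gene numbers of the deposited files, and all 10 passed the filter on low counts that left 12250 genes for testing. They were picked with their difference between Tau-P301L and wild-type libraries already known. The genotype values of these 10 genes are therefore a description here, with no test. Sex and the interaction of genotype and sex, which the choice did not use, are tested. Genotype tests are also given for other genes of the myosin system, whose lists were drawn up with earlier results of these data known.

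RNA was sequenced from cells sorted on Cd11b, an integrin chain of microglia and other myeloid cells, at 11 to 12 months of age. The Tau-P301L group held 5 libraries (1 and 2 from females, 3 to 5 from males) from mice with a tau transgene that carries the P301L mutation of inherited frontotemporal dementia. Their littermates without the transgene gave the 4 wild-type libraries (1 and 2 from females, 3 and 4 from males). Numbers follow sample order and pair nothing. The sources used here do not name the promoter or the cells that express the transgene, nor the number of mice behind a library, so the spread between libraries may be partly technical.

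Libraries held 1494727 to 3793606 counted reads, the fewest in Tau-P301L library 5. The 10 microglial markers summed to 8651 to 15362 CPM (each library's counts scaled to a common total with TMM factors) in Tau-P301L and 10900 to 14828 CPM in wild-type libraries, so the labelled cell type was present in both groups. Of these markers 1 had an estimate above 0 and 9 below it, with a median log2 fold change of -0.26 and 0 past an edgeR adjusted p of 0.05, while 2 had an unadjusted p under it. Tau-P301L library 5 had the highest sum of the 8 oligodendrocyte markers, 1496 CPM, where the median of its group was 553 CPM and wild-type libraries had 520 to 738 CPM. It also had the highest astrocyte sum, 674.5 CPM, and the highest endothelial sum, 67.7 CPM. Wild-type libraries had 317 to 419 CPM and 35.6 to 47.8 CPM for these. The same held for vascular smooth muscle and pericyte markers, but not for neuronal ones. Tau-P301L libraries 3 and 5 reached 10 reads for only 9928 and 9063 genes, fewer than the others, and estimates without both are given for several genes. Mitochondrially encoded genes took 10.2 to 23.1% of counted reads in Tau-P301L and 9.30 to 20% in wild-type libraries. The highest shares were in Tau-P301L library 3 and wild-type library 1, and their part in the values was not tested. In bulk RNA, fewer cells of a type and less RNA per cell cannot be told apart.

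Myosins are motors that bind actin filaments and use ATP to pull on them or to walk along them. The heavy chain carries the motor, and light chains or calmodulin stiffen its neck. Class II myosins assemble into filaments and drive contraction, class V myosins carry organelles, and class I myosins link actin to membranes. Class IX myosins also switch off a small GTPase through a domain in the tail, and class X myosin works in filopodia. The class XVIII proteins have an unusual motor with little or no ATPase activity and are thought to act as scaffolds. Myo18b is known mainly from skeletal and heart muscle, where it is needed to build sarcomeres.

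The coding bases of the ATP-binding loop, the P-loop of the motor, are shown for 5 of the heavy chains because this is among the most conserved stretches of the motor protein. Each was read from the GENCODE M21 transcripts of GRCm38, 5′ to 3′ on the coding strand, and capitals mark the 24 bases of the loop.
Myo18b: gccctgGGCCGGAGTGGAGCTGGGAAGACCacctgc
Myo18a: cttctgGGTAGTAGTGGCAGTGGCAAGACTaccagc
Myo5a: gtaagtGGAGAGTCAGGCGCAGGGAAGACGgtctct
Myh9: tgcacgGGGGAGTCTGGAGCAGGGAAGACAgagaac
Myo9b: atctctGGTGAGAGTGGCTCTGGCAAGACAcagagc
Of the 24 loop bases, Myo18b shared 15 with Myo5a, Myo18a shared 12, Myh9 shared 20 and Myo9b shared 16, so each differed from Myo5a in several bases. Over whole coding sequences, the longest identical run between any 2 of the 10 genes was 32 bases, between Myo1e and Myo1f. It was 19 bases between Myo18b and Myo18a, and 13 between Myo18b and Myo5a. The deposited counts are of reads that align uniquely, so reads from such runs alone could be lost, and read length is not stated.

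The summed level of the 10 heavy chains differed between the groups by less than the spread between libraries, while its make-up differed. Since the genes were picked on this contrast, the differing shares restate their levels and add no support. A value after ± is the SD over the 5 Tau-P301L or the 4 wild-type libraries throughout. The 10 genes summed to 1876 ± 275 CPM across Tau-P301L libraries, against 1892 ± 171 CPM across wild-type libraries. Myo18b made up 6.01 ± 2.00% of the reads of the 10 genes in Tau-P301L and 16.3 ± 4.76% in wild-type libraries. Myo18a made up 6.15 ± 1.76% in Tau-P301L and 12.0 ± 2.18% in wild-type libraries. Myo5a made up 13.6 ± 1.73% in Tau-P301L and 6.63 ± 2.21% in wild-type libraries. Myo9b made up 23.9 ± 6.38% in Tau-P301L and 15.8 ± 0.508% in wild-type libraries. Its share in Tau-P301L library 1, 15.28%, lay below every wild-type library (15.34 to 16.5%). The stack of shares by library shows the class XVIII block at the foot narrower and the Myo5a block at the top wider in each Tau-P301L library.

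**Figure D1:**
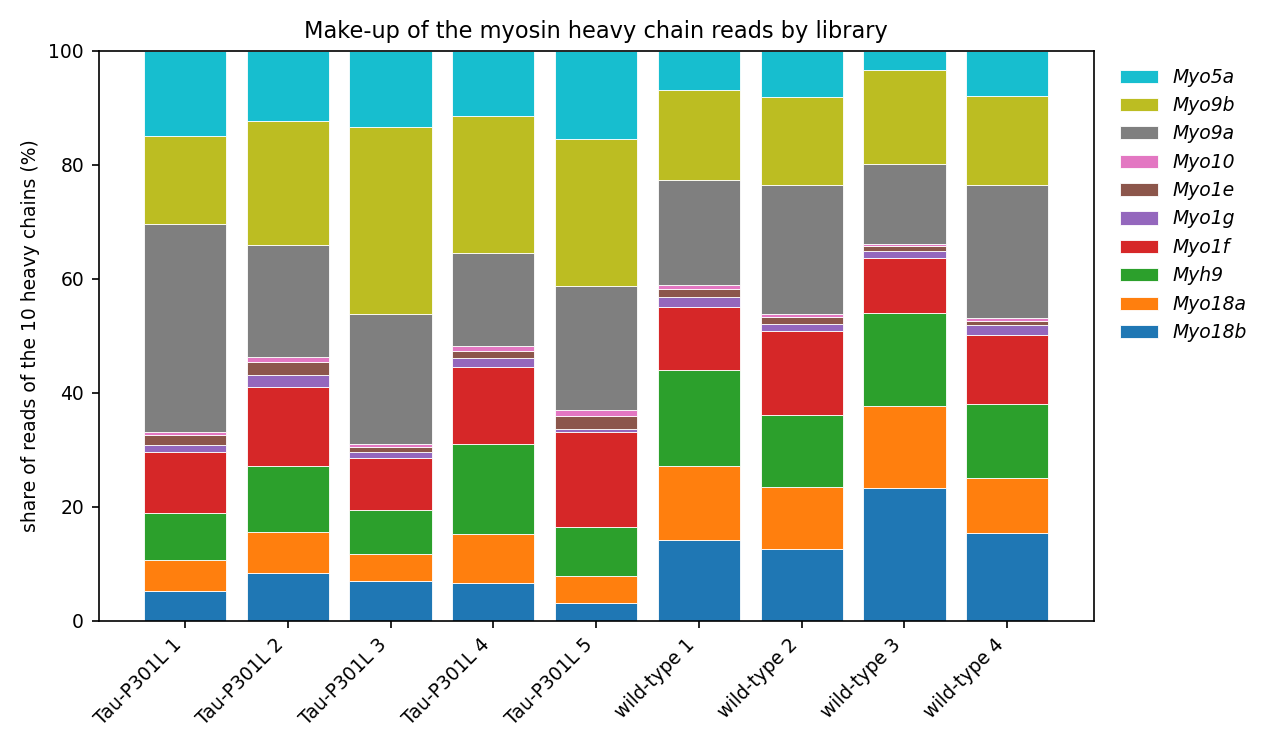
Share of the reads of the 10 myosin heavy chains (vertical axis, percent) taken by each gene in each library (horizontal axis), with the 5 Tau-P301L libraries on the left and the 4 wild-type libraries on the right. Myo18b takes 2.99 to 8.28% in Tau-P301L and 12.5 to 23.2% in wild-type libraries, and Myo5a takes 11.5 to 15.6% in Tau-P301L and 3.43 to 8.18% in wild-type libraries.

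Per unit of the gene length that the authors used, Myo1f was the most abundant of the 10 in both groups and Myo10 the least. Their values give relative lengths only, which were scaled to bases here by the median ratio of exonic to relative length over the genes compared. The length implied in this way differed from exonic length for some genes. It was 11934 against 7496 bases for Myo9b and 8285 against 12928 for Myh9, but 15363 against 14803 for Myo5a. The order of genes therefore depends on the length used. Levels between genes were compared as nRPKM, the authors' RPKM (reads relative to gene length and library total) adjusted by a size factor. Myo1f stood at 15.2 ± 3.95 nRPKM in Tau-P301L (SD, n = 5) and 14.2 ± 2.28 nRPKM in wild-type libraries (SD, n = 4). Myo10 stood at 0.339 ± 0.123 nRPKM in Tau-P301L and 0.260 ± 0.0844 nRPKM in wild-type libraries.

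In Tau-P301L libraries the order from high to low was Myo1f, Myo9b, Myo9a, Myh9, Myo5a, Myo18b, Myo18a, Myo1g, Myo1e and Myo10. Neighbours in that order overlapped between libraries except Myo1e and Myo10. In wild-type libraries the order was Myo1f, Myh9, Myo18b, Myo9a, Myo9b, Myo18a, Myo5a, Myo1g, Myo1e and Myo10. There the ranges of neighbours were apart between Myo1f and Myh9, Myo18a and Myo5a, Myo1g and Myo1e, and Myo1e and Myo10, and they overlapped elsewhere. Myo18b ranked below Myo5a in Tau-P301L and above it in wild-type libraries.

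Class XVIII held the genes with the lowest estimates in Tau-P301L. Myo18b (Entrez 74376, chromosome 5, 112688876 to 112896362, minus strand of GRCm38) had 252, 453, 311, 341 and 72 reads in Tau-P301L libraries 1 to 5, against 884, 691, 1264 and 930 reads in wild-type libraries 1 to 4. After scaling these were 80.0, 162, 139.5, 146 and 50.3 CPM for Tau-P301L, against 271, 236, 484 and 258 CPM for wild-type libraries. Every Tau-P301L library lay below every wild-type library, with Tau-P301L library 5 the lowest and wild-type library 3 the highest of all. Groups apart in this direction were found for 1.18% of all genes tested. The log2 fold change of Tau-P301L over wild-type was -1.43 (SE 0.31). It was -1.13 without wild-type library 3 and -1.18 without Tau-P301L libraries 3 and 5.

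Myo18a (chromosome 11, 77763246 to 77865980, plus strand), the other class XVIII gene, acts as a scaffold at the Golgi and elsewhere. It had 81.3, 143, 92.8, 192 and 81 CPM in Tau-P301L libraries 1 to 5, against 249.5, 208, 302 and 159 CPM in wild-type libraries 1 to 4. Of the 5 Tau-P301L libraries 4 lay below every wild-type library, while library 4 lay above wild-type library 4. The log2 fold change was -0.97 (SE 0.29), and -0.71 without Tau-P301L libraries 3 and 5.

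Myo18b and Myo18a followed each other across the 9 libraries, with a Pearson correlation of log2 CPM of 0.89, and 0.73 after the mean of each group was removed. Levels of all genes in a library share its depth and scaling, so this is a description of these libraries. By the authors' gene lengths, Myo18b was 1.18 ± 0.406 times as abundant as Myo18a in Tau-P301L (SD, n = 5) and 1.61 ± 0.343 times in wild-type libraries (SD, n = 4), with overlapping groups.

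An antisense gene, 1700095B10Rik, overlaps 248 exonic bases of Myo18b, or 2.32% of its exons. It had 30, 34, 41, 42 and 17 reads in Tau-P301L libraries and 73, 47, 90 and 83 reads in wild-type libraries. It averaged 14.0 ± 3.97 CPM across Tau-P301L libraries, against 23.95 ± 7.66 CPM across wild-type ones (log2 fold change -0.82, SE 0.38, edgeR adjusted p = 0.776). No source says that strand was used in counting, so reads of the overlapping stretch cannot be told apart between these genes. Its reads came to 7.51 to 23.6% of those of Myo18b in Tau-P301L and 6.80 to 8.92% in wild-type libraries.

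Genes of striated muscle, the tissue in which Myo18b is best known, were looked at beside it. Of 22 muscle markers 9 had no read in any library (Acta1, Actc1, Ckm, Tnnc2, Myot, Mybpc1, Myh1, Myh2 and Myh4). The 22 markers summed to 29.1 to 46.1 CPM across Tau-P301L libraries, against 26.9 to 47.1 CPM across wild-type ones, with overlapping groups, and their part in the Myo18b values was not tested.

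Class II was represented by Myh9 (chromosome 15, 77760587 to 77842175, minus strand), the heavy chain of non-muscle myosin IIA, which drives contraction of the cell cortex. It had 127, 225, 157, 351 and 146 CPM in Tau-P301L libraries 1 to 5, against 326, 238, 338 and 217 CPM in wild-type libraries 1 to 4. The groups overlapped, with Tau-P301L library 4 the highest of all 9 and 3 Tau-P301L libraries below every wild-type library. The log2 fold change was -0.50 (SE 0.29), -0.26 without Tau-P301L libraries 3 and 5, and -0.77 without Tau-P301L library 4. The 8 neutrophil markers also had their highest sum in Tau-P301L library 4, 256 CPM, where the median of its group was 4.48 CPM and wild-type libraries had 0.341 to 72.7 CPM, and their part in the Myh9 values was not tested. Myh9 followed Myo18a closely, with a correlation of 0.94 over the 9 libraries and 0.97 after group means were removed. It had a correlation of 0.76 with Myo18b over the 9 libraries.

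**Figure D2:**
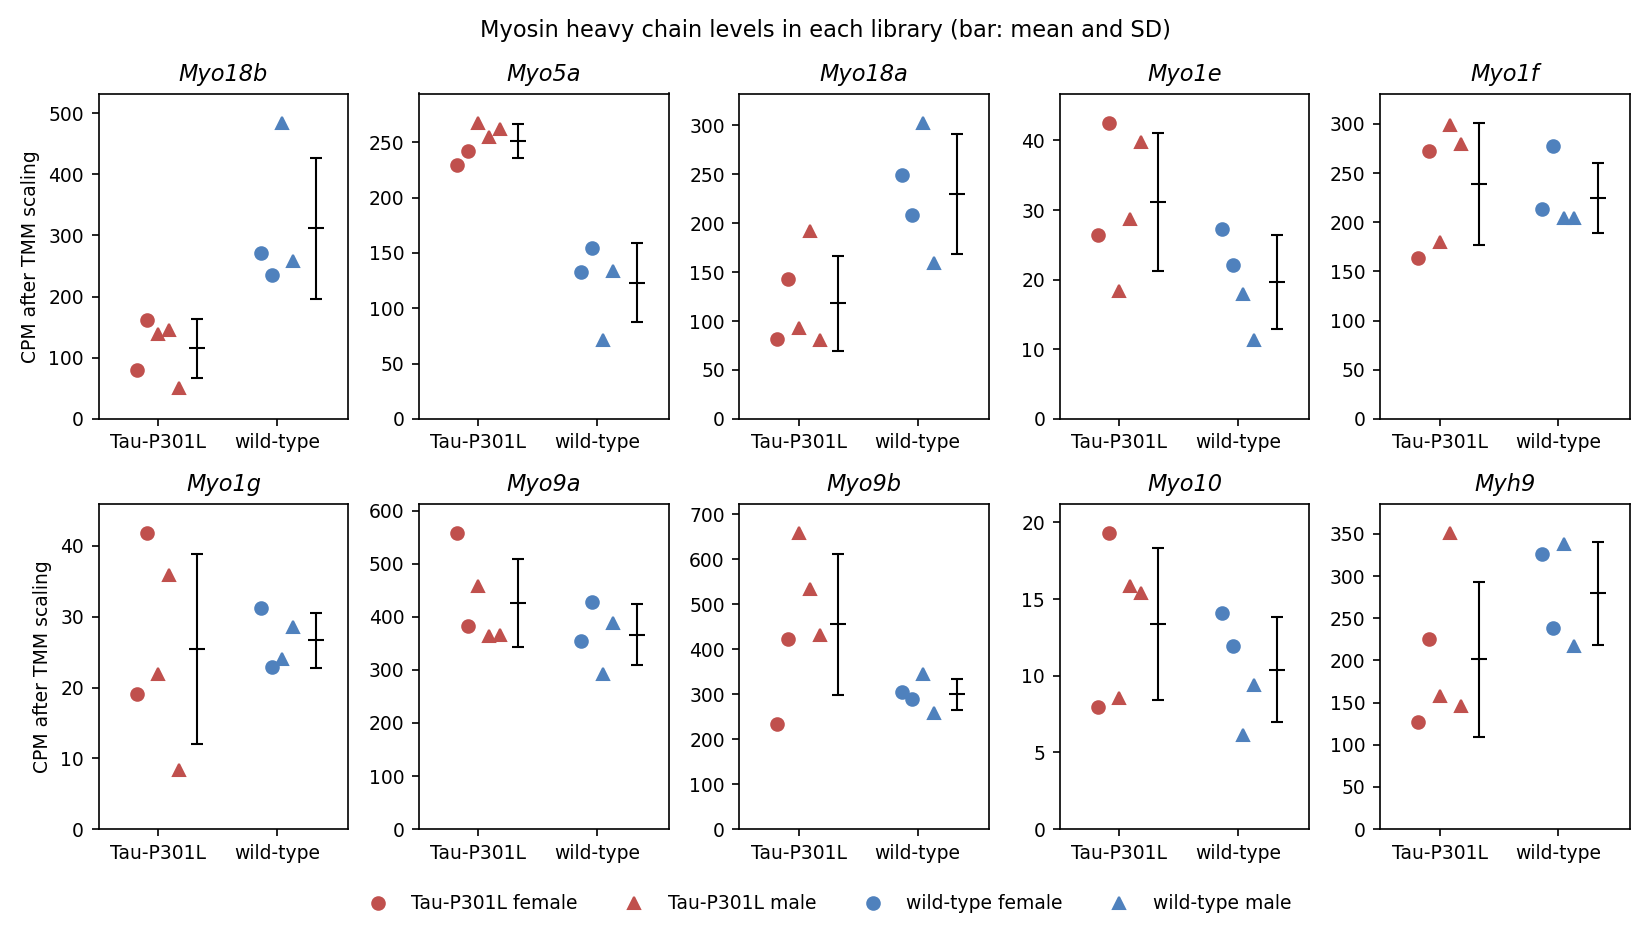
Level of each of the 10 myosin heavy chains (vertical axis, CPM after TMM scaling, from 0) in each library, with Tau-P301L on the left and wild-type on the right of each panel. Circles are female and triangles male libraries, and the bar beside them is the mean with the SD. The groups are apart for Myo18b (50.3 to 162 CPM in Tau-P301L, 236 to 484 CPM in wild-type) and Myo5a (229 to 267 CPM in Tau-P301L, 71.5 to 154.5 CPM in wild-type), and overlap for the other 8.

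Myo5a (Entrez 17918, chromosome 9, 75071015 to 75223688, plus strand), the class V motor that carries melanosomes, vesicles and endoplasmic reticulum, stood at the other end. It had 722, 678, 596, 596 and 375 reads in Tau-P301L libraries 1 to 5, against 432, 453, 187 and 483 reads in wild-type libraries 1 to 4. After scaling these were 229, 242, 267, 255 and 262 CPM for Tau-P301L, against 132, 154.5, 71.5 and 134 CPM for wild-type libraries. The lowest Tau-P301L value exceeded the highest wild-type value, the Tau-P301L libraries lay close together and wild-type library 3 was the lowest. Groups apart in this direction were found for 1.31% of all genes tested. The log2 fold change was 1.06 (SE 0.25), and 0.96 without Tau-P301L libraries 3 and 5.

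Neurons express Myo5a strongly, so neuronal transcripts are given beside it. The 12 neuronal markers, none of them at 0 throughout, summed to 197 to 342 CPM across Tau-P301L libraries, against 253 to 427 CPM across wild-type ones. Among the 10 that were tested, estimates were above 0 for 2 and below 0 for 8 (median log2 fold change -0.36, with 0 past an edgeR adjusted p of 0.05, while 1 had an unadjusted p under it). Wild-type library 3, with the lowest Myo5a, had the highest neuronal sum, and the part of neuronal RNA in the Myo5a values was not tested.

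The ratio of Myo5a to Myo18b within a library does not depend on how libraries are scaled. Per length, Myo5a was 1.76, 0.919, 1.18, 1.07 and 3.20 times as abundant as Myo18b in Tau-P301L libraries 1 to 5, against 0.300, 0.402, 0.0908 and 0.319 times in wild-type libraries 1 to 4. The groups were apart, with the extremes in Tau-P301L library 5 and wild-type library 3. This had to follow, since Myo5a was higher and Myo18b lower in every Tau-P301L library, and it adds no support. Over the 9 libraries the correlation of their log2 CPM was -0.84, and -0.48 after group means were removed. The plot of Myo5a against Myo18b shows the groups in opposite corners, which follows from the same separation.

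**Figure D3:**
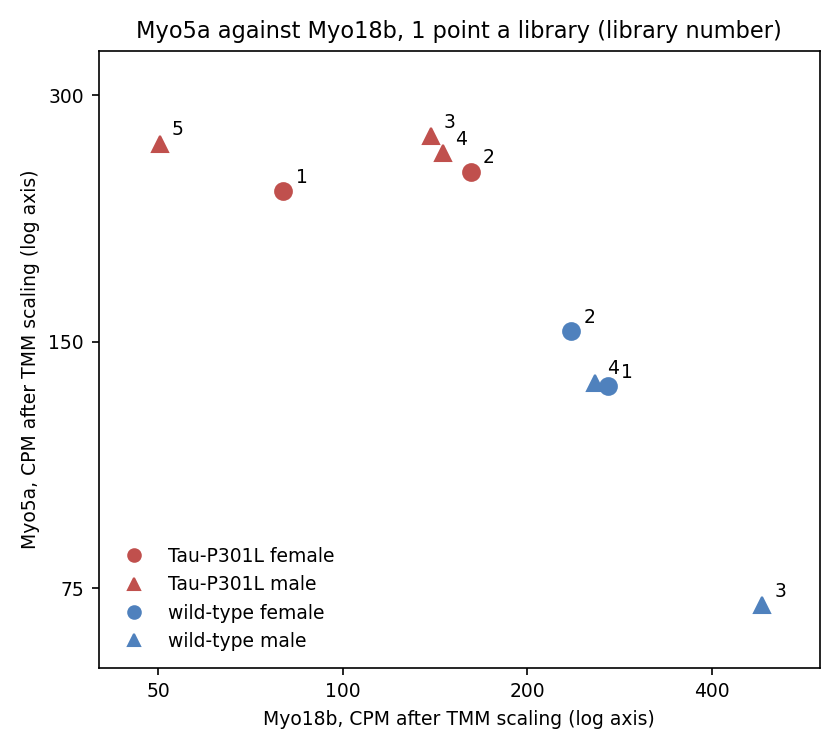
Myo5a (vertical) against Myo18b (horizontal), both as CPM after TMM scaling on log axes, with 1 point for each library and its number beside it. Tau-P301L libraries lie at the upper left (Myo5a 229 to 267 CPM, Myo18b 50.3 to 162 CPM) and wild-type libraries at the lower right (Myo5a 71.5 to 154.5 CPM, Myo18b 236 to 484 CPM), with wild-type library 3 farthest out.

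The class IX genes, which join a motor to a GTPase-activating domain, had higher estimates with overlapping groups. Myo9b (chromosome 8), which is needed for macrophage movement in mice, had 233, 423, 657, 533 and 432 CPM in Tau-P301L libraries 1 to 5, against 304, 290, 344 and 259 CPM in wild-type libraries 1 to 4. Tau-P301L libraries 2 to 5 lay above every wild-type library and library 1 below all of them. The log2 fold change was 0.52 (SE 0.25), with 0.14 in females alone and 0.84 in males alone. Its other class member, Myo9a (chromosome 9), averaged 426 ± 82.8 CPM across Tau-P301L libraries, against 366 ± 57.2 CPM across wild-type libraries, with a log2 fold change of 0.24 (SE 0.22). That of Myo9a was 0.13 without Tau-P301L library 1 and 0.16 without wild-type library 3. Myo9a was highest in Tau-P301L library 1, where Myo9b was lowest. Their correlation over the 9 libraries was -0.18, and -0.57 after group means were removed.

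Class I gave no common direction. Myo1e (chromosome 9), a long-tailed form that works at sites of endocytosis and in podosomes, had 26.4, 42.5, 18.4, 28.6 and 39.8 CPM in Tau-P301L libraries 1 to 5, against 27.3, 22.2, 18.0 and 11.4 CPM in wild-type libraries 1 to 4. Of the Tau-P301L libraries 3 lay above every wild-type library, and the log2 fold change was 0.74 (SE 0.38). Its close relative Myo1f (chromosome 17), found mainly in cells of the immune system, averaged 239 ± 62.2 CPM across Tau-P301L libraries, against 225 ± 35.4 CPM across wild-type ones (log2 fold change 0.09, SE 0.24), with an estimate of 0.25 without Tau-P301L library 1. Myo1g (chromosome 11), a short-tailed form of blood cells, averaged 25.4 ± 13.4 CPM across Tau-P301L libraries, against 26.7 ± 3.91 CPM across wild-type ones (log2 fold change -0.05, SE 0.41). Its lowest value, 8.38 CPM from 12 reads, was in Tau-P301L library 5, and the Myo1g estimate was 0.28 without Tau-P301L libraries 3 and 5. Myo10 (chromosome 15), the motor of filopodial tips, averaged 13.4 ± 4.95 CPM across Tau-P301L libraries, against 10.4 ± 3.43 CPM across wild-type ones (log2 fold change 0.43, SE 0.47), from 16 to 54 reads a library. Its estimate was 0.23 without wild-type library 3, 0.26 without Tau-P301L library 2 and 0.69 without Tau-P301L library 1.

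Estimates of 6 of the 10 genes were above 0 and those of 4 below it, with a median log2 fold change of 0.16, against 6118 above, 6132 below and a median of 0.00 over all genes tested. The groups were apart for 2 of the 10, in either direction, against 2.48% of all genes. None of the 10 passed an edgeR adjusted p of 0.05, where 0.00816% of all genes did. An unadjusted p under 0.05 was found for 3 of the 10, Myo18b, Myo5a and Myo18a, against 6.35% of all genes. Since the genes were picked on this contrast, nothing is read from these counts. The plot of fold changes gives the 10 estimates beside those of the other heavy chains.

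**Figure D4:**
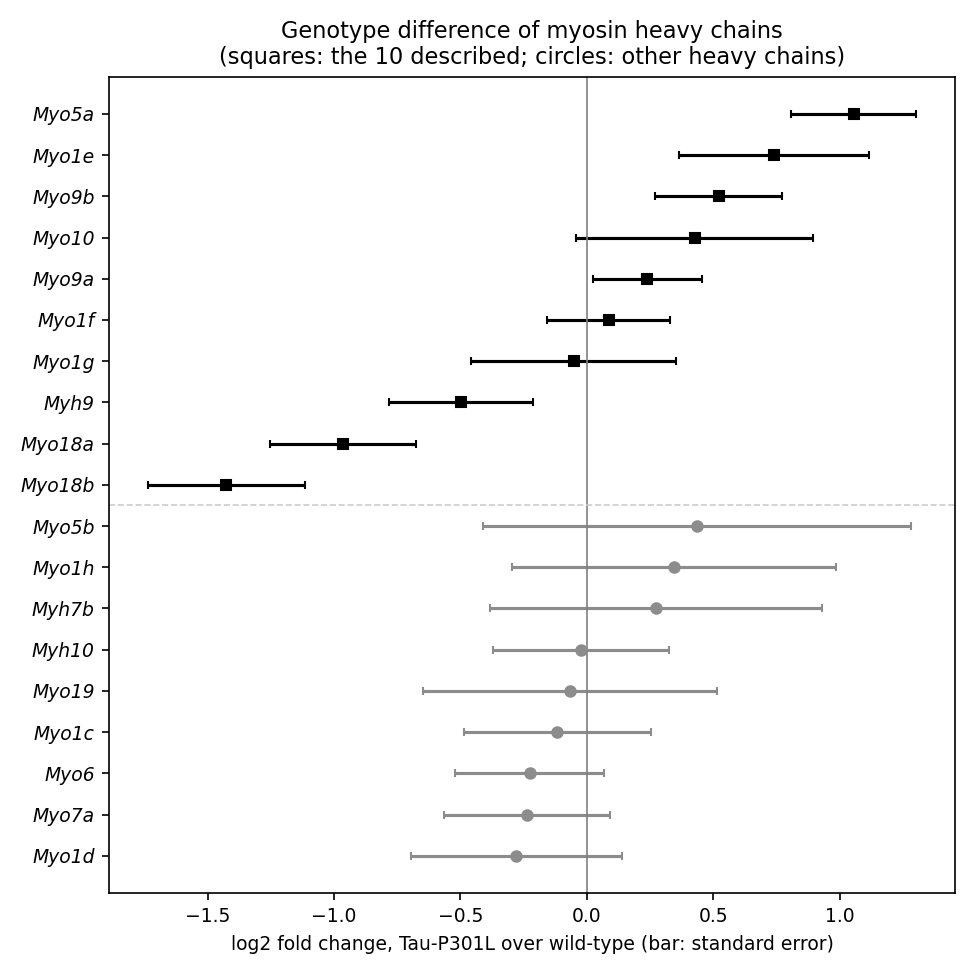
Log2 fold change of Tau-P301L over wild-type (horizontal axis, bar for the standard error) of the 10 myosin heavy chains described (squares, above the dashed line) and of 9 other heavy chains that were tested (circles, below it). The squares run from 1.06 for Myo5a to -1.43 for Myo18b, and the circles lie between -0.28 and 0.44.

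Sex, which played no part in the choice of genes, was tested in the same fit. None of the 10 passed for males over females, where 0.049% of all genes did. An unadjusted p under 0.05 was also found for 0 of the 10, against 2.43% of all genes. The smallest p values belonged to Myo9b and Myo1e. Myo9b averaged 445 ± 156 CPM in males (SD, n = 5) and 312.5 ± 79.9 CPM in females (SD, n = 4), with a log2 fold change of males over females of 0.40 (SE 0.25, edgeR adjusted p = 1.0). This was 0.18 without Tau-P301L library 1. Myo1e averaged 23.2 ± 11.1 CPM in males and 29.6 ± 8.89 CPM in females (log2 fold change -0.48, SE 0.37, edgeR adjusted p = 1.0), and the estimate was -0.31 without wild-type library 4. For Myo18b the log2 fold change of males over females was 0.19 (SE 0.31), and for Myo5a -0.14 (SE 0.24).

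Whether the genotype difference itself differed between males and females was tested as an interaction. With edgeR 0 of all genes passed (0%), 466 or 3.8% had an unadjusted p under 0.05 and none of those was among the 10. DESeq2 called 4 genes and limma-voom called 0. The smallest p values among the 10 belonged to Myo9b and Myo5a. Myo9b had an interaction of 0.70 log2 units (SE 0.49, edgeR adjusted p = 0.999), with the estimate in males above that in females. It was 0.34 without Tau-P301L library 1 and 1.19 without Tau-P301L library 2. For Myo5a the interaction was 0.63 (SE 0.49, edgeR adjusted p = 0.999), with 0.25 without wild-type library 3 and 1.14 without wild-type library 4. The log2 fold change of Myo5a was 1.35 in males alone and 0.71 in females alone, and that of Myo18b was -1.72 in males alone and -1.07 in females alone (interaction -0.65, SE 0.62, edgeR adjusted p = 0.999). Each genotype and sex held 2 or 3 libraries, and a p that misses the threshold does not show that the sexes were alike.

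The other heavy chains were mostly too low to test, and none of those tested passed. Of 13 further class II genes, which include the muscle forms, 2 were tested and 6 had no read in any library. Myh10, non-muscle myosin IIB, averaged 36.0 ± 6.26 CPM across Tau-P301L libraries, against 36.8 ± 16.2 CPM across wild-type ones (log2 fold change -0.02, SE 0.35, edgeR adjusted p = 0.993). Myh7b had a log2 fold change of 0.27 (SE 0.66, edgeR adjusted p = 0.95), -0.41 without Tau-P301L library 3 and -0.18 without libraries 3 and 5. The estimate for Myh10 was 0.33 without wild-type library 1.

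Of 15 further unconventional heavy chains 8 were tested, with 2 higher and 6 lower estimates and a median of -0.17. Myo6, which walks toward the minus end of actin, averaged 46.7 ± 11.0 CPM across Tau-P301L libraries, against 53.6 ± 6.64 CPM across wild-type ones (log2 fold change -0.23, SE 0.29, edgeR adjusted p = 0.913). The estimate for Myo6 was -0.05 without Tau-P301L library 2, -0.13 without wild-type library 1 and -0.35 without wild-type library 3. In these 2 lists edgeR called 0 genes, and 0 had an unadjusted p under 0.05.

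Light chains and calmodulins gave no call either. Of 15 genes 7 were tested, with 3 higher and 4 lower estimates, a median of -0.03 and 0 with an unadjusted p under 0.05. Calm3, which encodes calmodulin, the light chain of many unconventional myosins, Myo5a included, averaged 17.8 ± 8.69 CPM across Tau-P301L libraries, against 31.3 ± 7.22 CPM across wild-type ones (log2 fold change -0.79, SE 0.41, edgeR adjusted p = 0.789), and the estimate was -0.44 without Tau-P301L libraries 3 and 5.

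Among 22 genes that phosphorylate, dephosphorylate or fold myosin, 14 were tested, with 7 higher and 7 lower estimates and a median of -0.03. Rock1, a kinase that raises myosin II activity, was the 1 gene of the list with an unadjusted p under 0.05. It had 585, 473, 1576, 492 and 787 CPM in Tau-P301L libraries 1 to 5, against 560, 401, 503 and 396 CPM in wild-type libraries 1 to 4. Tau-P301L library 3 stood far above the rest, with an estimate of 0.65 log2 units for the genotype (SE 0.31, edgeR adjusted p = 0.776). Without library 3 the Rock1 estimate was 0.33, and without libraries 3 and 5 it was 0.13. Ppp1cb, the catalytic subunit of myosin phosphatase, averaged 67.9 ± 34.7 CPM across Tau-P301L libraries, against 45.6 ± 2.89 CPM across wild-type ones (log2 fold change 0.58, SE 0.35, edgeR adjusted p = 0.792). Its estimate was 0.16 without Tau-P301L library 1 and 0.29 without Tau-P301L libraries 3 and 5.

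Adaptors that tie myosins to their cargo were tested for 16 of the 21 listed genes that the deposited files hold, with 10 higher and 6 lower estimates and a median of 0.13. Mlph encodes melanophilin, which links Myo5a to Rab27a on melanosomes, and it was the 1 gene of the list with an unadjusted p under 0.05. It had 198.5, 187.5, 102, 292 and 186 CPM in Tau-P301L libraries 1 to 5, against 310, 251, 337 and 259 CPM in wild-type libraries 1 to 4. Of the Tau-P301L libraries 4 lay below every wild-type library, with an estimate of -0.59 log2 units for the genotype (SE 0.26, edgeR adjusted p = 0.776), opposite in sign to that of Myo5a. Without Tau-P301L libraries 3 and 5 the Mlph estimate was -0.33. Rab11fip3, an effector of recycling endosomes, averaged 13.6 ± 5.33 CPM across Tau-P301L libraries, against 22.3 ± 5.49 CPM across wild-type ones (log2 fold change -0.75, SE 0.42, edgeR adjusted p = 0.789). Mlph and Rab11fip3 are shown as the adaptors of smallest p, and both had lower estimates, unlike most of the list.

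The genes whose log2 CPM over the 9 libraries was most like that of Myo18b or Myo5a were picked out of 11364 tested genes with a symbol. With so few libraries and so many genes, correlations of this size are a description and carry no p. Group means were not removed here, so the correlations include the genotype difference on which Myo18b and Myo5a were picked. Most like Myo18b were Lzts3 (Pearson r 0.95), Usp36 (0.94), Epn1 (0.94), Kri1 (0.94) and Chd6 (0.94). Chd6, a chromatin remodeller, was the most abundant of these, with 266 ± 67.3 CPM across Tau-P301L libraries, against 364 ± 32.2 CPM across wild-type libraries. Lzts3 was near the level of 3 reads in Tau-P301L, with 2.085 ± 1.302 CPM, against 8.319 ± 2.898 CPM across wild-type libraries. Most opposite to Myo18b were Gm35831 (-0.97), Gsap (-0.96), Cr2 (-0.95), 3110040N11Rik (-0.94) and Col14a1 (-0.94).

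Most like Myo5a was Clec7a (r 0.96), the beta-glucan receptor dectin-1, with 46.3 ± 9.50 CPM across Tau-P301L libraries, against 10.8 ± 5.92 CPM across wild-type libraries. Next came Rftn1 (0.94), a lipid raft protein, Cp (0.94), which encodes the ferroxidase ceruloplasmin, Dph6 (0.94) and Zdhhc13 (0.94). Most opposite to Myo5a were Smdt1 (-0.98), Fgf11 (-0.95), Maged2 (-0.94), Arid3a (-0.94) and Khdrbs3 (-0.93). Smdt1, a subunit of the mitochondrial calcium uniporter, averaged 1.55 ± 0.35 CPM across Tau-P301L libraries, against 6.38 ± 2.73 CPM across wild-type libraries, so its Tau-P301L level lay near that of 3 reads (0.791 to 2.01 CPM before TMM scaling). Maged2 likewise averaged 1.621 ± 0.7368 CPM across Tau-P301L libraries.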

How the data were processed

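Each deposited file gives, for 1 library, the count of reads that align uniquely to each gene model and a size-factor-adjusted RPKM, per the file headers. Reads were aligned with GSNAP to GRCm38, per the submitters' processing notes, and no source used here states versions, annotation, strand or read filters. Both deposited columns carry 1 measurement: within a library the ratio of RPKM to count was a constant per gene times 1 factor (largest relative deviation 1.3e-14). Across 19536 genes the log of the implied gene length correlated with exonic length at 0.852 and with gene span at 0.736.

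Symbols came from RefSeq GRCm38.p6 (31049 of 36528 gene numbers matched), and spans and coding sequences from GENCODE M21. Counts were tested with edgeR 4.0.16 (R 4.3.3) by the quasi-likelihood F test, with TMM scaling, the default low-count filter, robust dispersions, sex as an additive term and Benjamini-Hochberg adjustment over 12250 genes. An SE given or drawn for an edgeR estimate is the absolute log2 fold change divided by the square root of its F statistic. It was not taken from the fit directly and is less reliable for estimates near 0. The biological coefficient of variation was 0.464. Log2 CPM used a prior count of 2, and 3 reads in a library were taken as the floor. DESeq2 1.42.0, limma-voom (limma 3.58.1), other filters and scalings and left-out libraries were alternatives. The steps were tested on simulated data.

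The 10 genes and all gene lists were chosen with earlier results of these data known. In each list the genes past the threshold and the 2 of smallest p were named, for sex and interaction the 2 of the 10 of smallest p, and for likeness the 5 highest and 5 lowest correlations. Some genes that this rule names are not reported here. 1700095B10Rik was named for its overlap with Myo18b.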

Additional observations from a re-analysis of the deposited data

Results flagged for a closer look

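Within each group of each of the 10 genes, the highest and lowest library were compared with the nearest other library by Dixon's gap over range, in 20 groups. Chance alone flags about 1 in 20 groups at this limit. Myo18b in wild-type library 3, a male, stood at 483.6 CPM, far above the other wild-type libraries at 236 to 271 CPM (gap over range 0.858). Without that library the log2 fold change of Myo18b was -1.13 in place of -1.43. Leaving out the highest wild-type library cannot make the groups overlap, so their separation was not checked in this way. The same library had the highest Myo18a and the lowest Myo5a of the wild-type group, 302 and 71.5 CPM. Myo1f in wild-type library 2, a female, stood at 277.5 CPM, above the other wild-type libraries at 204 to 214 CPM (gap over range 0.868).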

How the results depend on the processing

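Among all genes, edgeR called 1 gene for genotype, 6 for sex and 0 for the interaction. Without a low-count filter the counts were 26, 16 and 22, and without Tau-P301L libraries 3 and 5 they were 0, 10 and 1. DESeq2 gave 24 for genotype and 4 for the interaction, and the filter of 10 reads in 7 libraries gave 1 for sex. Leaving out 1 library at a time gave 0 to 1 genes for genotype, 6 for sex each time and 0 to 4 for the interaction. The genotype call was lost without any 1 wild-type library and without Tau-P301L library 1, 3 or 5, and interaction calls appeared without wild-type library 4 or Tau-P301L library 2 or 4. What caused these changes in the counts was not tested. Under the 19 alternatives the log2 fold change of Myo18b ran from -1.72 to -1.07, that of Myo5a from 0.71 to 1.35 and that of Myo18a from -1.21 to -0.71, all with the sign reported. The sign was also kept for Myo1e, Myo9a, Myo9b, Myo10 and Myh9, while Myo1f was -0.18 in females alone and Myo1g kept its sign in 14 of 19. Tested genes that turned were Myh7b (-0.18 without Tau-P301L libraries 3 and 5, and -0.41 to 0.48 with 1 library left out), Myh10 (0.0059 with limma-voom, 0.31 in males alone, and -0.16 to 0.33 with 1 library left out), and Myo6 (0.10 in males alone), and the cause was not tested. No paired analysis was possible because the labels give no replicate number shared between groups. Depth limits the lowest genes most: 3 reads equal 0.791 to 2.01 CPM, and Myo10 rested on 16 to 54 reads a library.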
